A study of Mus musculus with 15 samples.

Results

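The genes followed here control the step from G1 into S phase of the cell cycle, and comprise 4 cyclins (Ccnd1, Ccnd2, Ccnd3 and Ccne1), 2 kinases (Cdk4 and Cdk6) and 4 inhibitors of cyclin-dependent kinases (Cdkn1a, Cdkn1b, Cdkn2c and Cdkn2d). They were taken as the 10 named genes, with every probe that the platform's gene table assigns to them, which gave 24 of the 45263 probes on the Illumina bead array. RNA was measured on 15 arrays in 5 groups of 3. The Bcl2 labelled deficient group (Bcl2-rescued, Bcl11a-deficient pro-B cells, titled Bcl2+OHT) was set against the Bcl2 control group (wild type with Bcl2 overexpression, titled Bcl2-OHT). The labelled deficient group without Bcl2 (Bcl11a-deficient, titled EAAE+OHT) was set against the control group (wild type, titled EAAE-OHT). DN3 cells (T cell progenitors, with the label Bcl11bCKO/CKO) were also set against the control group.

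All labels give mice aged 6 to 8 weeks and a culture of bone marrow cells for 10 days with IL-7, Flt3L and SCF at 50 ng/ml each, and the DN3 labels carry this protocol too although they name lymphocytes as the tissue. The strain was mixed C57BL/6 and 129S5 for the pro-B groups and is given as C57B7 for DN3. Pro-B cells are the earliest committed B cell precursors, and Bcl2 is a protein that blocks cell death. OHT was given to both deficient groups and to neither of their controls, so the drug and the deletion cannot be told apart. The sources used here give no meaning for EAAE, no promoter for the added Bcl2 and no Cre. Every pro-B array without Bcl2 is titled EAAE and every array with it Bcl2. Bcl2 and any other difference between these sets of cultures therefore cannot be told apart.

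D-type cyclins bind CDK4 and CDK6, and cyclin E binds CDK2. The active kinases phosphorylate the retinoblastoma protein, which releases E2F transcription factors and lets DNA replication genes be expressed. The INK4 inhibitors, among them the products of Cdkn2c and Cdkn2d, bind CDK4 and CDK6 alone, while the CIP/KIP inhibitors encoded by Cdkn1a and Cdkn1b act on several cyclin-kinase complexes. Cdkn1a is a well known target of p53. In B cell precursors, IL-7 and the pre-B cell receptor drive this step, and cyclin D3 is known to be needed for pre-B cell expansion.

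Control replicate 3 was dim, with 11473 probes above background (detection p under 0.05) against 14946 to 16422 on the other pro-B arrays, and it correlated at 0.905 and 0.908 with the other control arrays. The DN3 arrays had 14448 to 14767 such probes and lay on a slide of their own, slides being read from the array numbers in the labels. No DN3 signal was below 0 (lowest 39.6 to 40.2), against 33.2% to 39.9% of signals on the pro-B arrays. The DN3 arrays are therefore taken as having no background subtracted, unlike the pro-B arrays. The brightest Bcl11a probe went against the label without Bcl2 (log2 fold change 1.87 ± 0.20 SE, limma adjusted p = 0.0072) and with it under Bcl2 (-0.79 ± 0.20, adjusted p = 0.0172). The second tested probe gave -0.25 ± 0.44 without and -0.92 ± 0.44 with Bcl2 and did not pass, and which part of the gene was deleted is not stated, so these arrays are called labelled deficient and directions refer to that label. Of 10 pro-B markers with a probe 9 were above background on all arrays of each pro-B group, the exception being Pax5, whose mean of 5.34 to 5.43 lay near background in every one. In DN3 cells 7 of 8 T cell markers were detected. Of the 10 pro-B markers 6 were above background on at least 1 DN3 array, 4 of them on all 3, and Vpreb1, Igll1, Pax5 and Blnk on none. The 6 had mean log2 levels of 10.90 (Dntt), 10.69 (Il7r), 8.82 (Cd79b), 8.29 (Rag1), 5.70 (Vpreb3) and 5.64 (Ebf1). On the DN3 arrays the Bcl11b probe read 13.54, although the label names its conditional allele. The linear summed level of 8 neutrophil and monocyte markers was 321 to 396 in Bcl2 labelled deficient and 272 to 291 in Bcl2 control cells, against 3040 to 5599 in labelled deficient and 2764 to 5059 in control cells without Bcl2. Mpo and S100a8 were above background in both pro-B groups without Bcl2 and in no other group, and Itgam and Ngp in no group.

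Of the 24 probes, 20 were above background on enough arrays to be tested (detection p under 0.05 on at least 3), and these cover all 10 genes. The other 4, of Ccnd2 (ILMN_1235724), Ccnd3 (ILMN_2661849) and Cdkn1b (ILMN_1228598 and ILMN_2923960), were below background on all 12 pro-B arrays. ILMN_2923960 was above it on DN3 replicate 3, with a detection p of 0.0331. Levels are given as normalised log2 intensity, and are compared only within a probe. Each probe was tested in 1 limma fit per array set, with p-values adjusted (Benjamini-Hochberg) over all 17719 probes tested in pro-B cells or 18843 with DN3, and a probe passed at an adjusted p under 0.05.

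**Figure D1:**
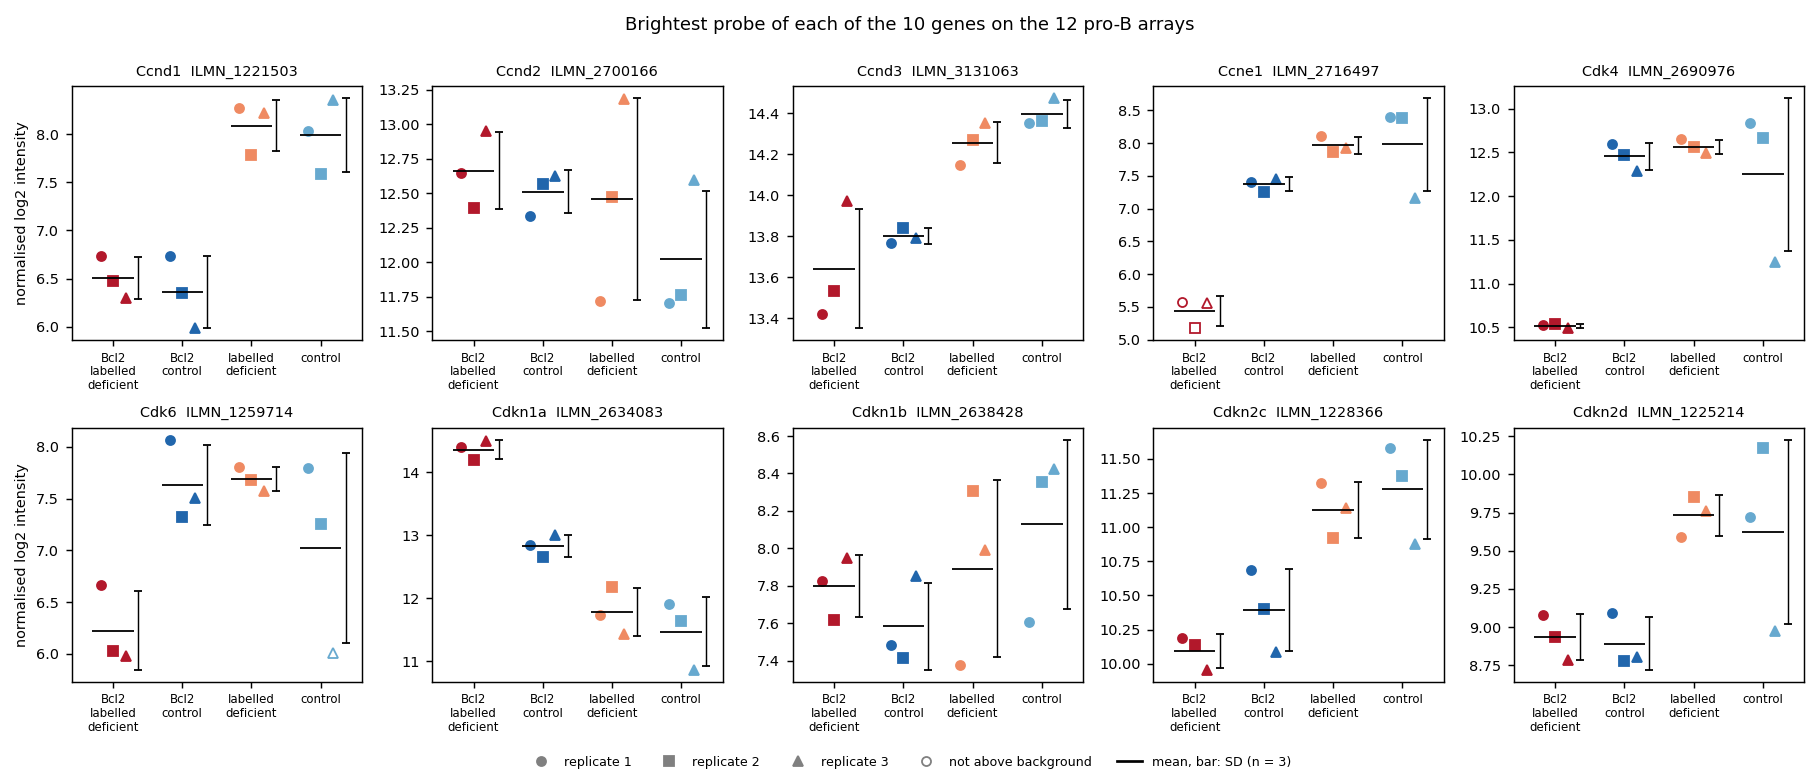
Normalised log2 intensity (vertical axis, a scale per panel) of the brightest probe of each of the 10 genes on the 12 pro-B arrays, by group, with a symbol for each replicate, open where the probe was not above background, and lines and bars for the mean and SD of 3 arrays. Ccne1 and Cdk4 were lowest on all 3 Bcl2 labelled deficient arrays, where Cdkn1a was highest, and Ccnd1 was lower on all 6 Bcl2 arrays than on the 6 without Bcl2.

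Within Bcl2-expressing cells, labelled Bcl11a deficiency came with less Ccne1, Cdk4 and Cdk6, a lower signal on 1 of 3 Cdkn2c probes, and more Cdkn1a. The cyclin E gene Ccne1 was at least 3.19-fold lower, both Cdk4 probes were 3.13- and 3.83-fold lower, and Cdk6 was 2.66-fold lower, while the 3 Cdkn1a probes were 2.57- to 3.33-fold higher. Of the 20 tested probes 8 passed, 3 higher and 5 lower, against 20.3% of all probes tested (10.3% higher and 10.1% lower). The median log2 fold change of the 20 was 0.14, against 0.02 over all probes. No probe of the 3 D-type cyclins, of Cdkn1b or of Cdkn2d passed. With the replicate number as a block, since same-numbered arrays deviated together, 9 passed, the addition being the Ccnd3 probe ILMN_1246473 (-0.90, adjusted p = 0.0191, against 0.101 without the block). Markers of other cells moved in this comparison too. The linear summed level of 5 erythroid markers was 8656 to 10802 in Bcl2 labelled deficient and 13155 to 17056 in Bcl2 control cells. Among them Hbb-bs, a globin gene, had a mean log2 level of 8.13 against 11.69. Tfrc, the brightest of these, read 13.20 against 13.44, and Epor 5.62 against 5.64. The summed level of 4 NK markers was 893 to 1239 against 564 to 831, of which Prf1 alone was above background. That of 8 dendritic markers was 489 to 641 against 563 to 787. There Bst2, the brightest, read 8.02 against 8.76, Zbtb46 6.08 against 4.85 and Xcr1 5.85 against 5.18. Klf1 and Alas2 were below background in both groups. The summed level of the 10 pro-B markers was 140443 to 143361 against 106702 to 111890, and the recombination genes Rag1 and Dntt read 10.91 against 8.99 and 8.78 against 6.96. The part of these markers in the members' results was not tested.

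Without Bcl2, the same label gave no call. None of the 20 probes passed in limma, against 0.0226% of all probes tested (4 of 17719, 0.00564% higher and 0.0169% lower), while unadjusted p was under 0.05 for 1 of the 20 and for 1097 of all probes. The log2 fold changes lay between -0.52 ± 0.22 and 0.67 ± 0.39 (SE). The first of these was the Cdk4 probe ILMN_2646203 (adjusted p = 0.77) and the second Cdk6 (adjusted p = 0.803), whose difference was 0.16 without control replicate 3. Within slide 1 none passed. Within slide 2 this comparison is 1 array against the dim control replicate 3, and its calls are not read as a result about these genes. Slide 2 holds only replicate 3 of each group without Bcl2, and slide 1 only replicate 1 of each Bcl2 group. Such single arrays are assumed to vary like the other groups. A pass within a slide is therefore not read as a result, and the within-slide values below give sizes. Those within slide 2 that use the control group, interactions included, rest on control replicate 3.

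Between the Bcl2 states of labelled deficient cells, 14 of the 20 probes passed, 3 higher and 11 lower with Bcl2, against 35.1% of all probes (18.3% higher and 16.8% lower). At least 1 probe each of Ccne1, Cdk4, Cdk6, Ccnd1, Ccnd3, Cdkn2c and Cdkn2d fell, and the 3 of Cdkn1a rose. In control cells 6 of 20 passed with Bcl2, 2 higher and 4 lower, against 6.91% of all probes (4.15% higher and 2.75% lower). These were probes of Ccnd1, Ccnd3 and Cdkn2c, which were lower, and of Cdkn1a, which were higher. The count in control cells rests on single arrays: it was 12 without control replicate 3, 3 without Bcl2 control replicate 1 or 2, and 1 without Bcl2 control replicate 3. With only the 6 arrays compared it was also 1, the brightest Ccnd1 probe. Among the arrays left out, control replicate 3 gave the highest count over all probes too, and those counts are given in the last section. Neutrophil and monocyte markers moved with Bcl2 in both comparisons, as given above, and their part in these results was not tested.

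**Figure D2:**
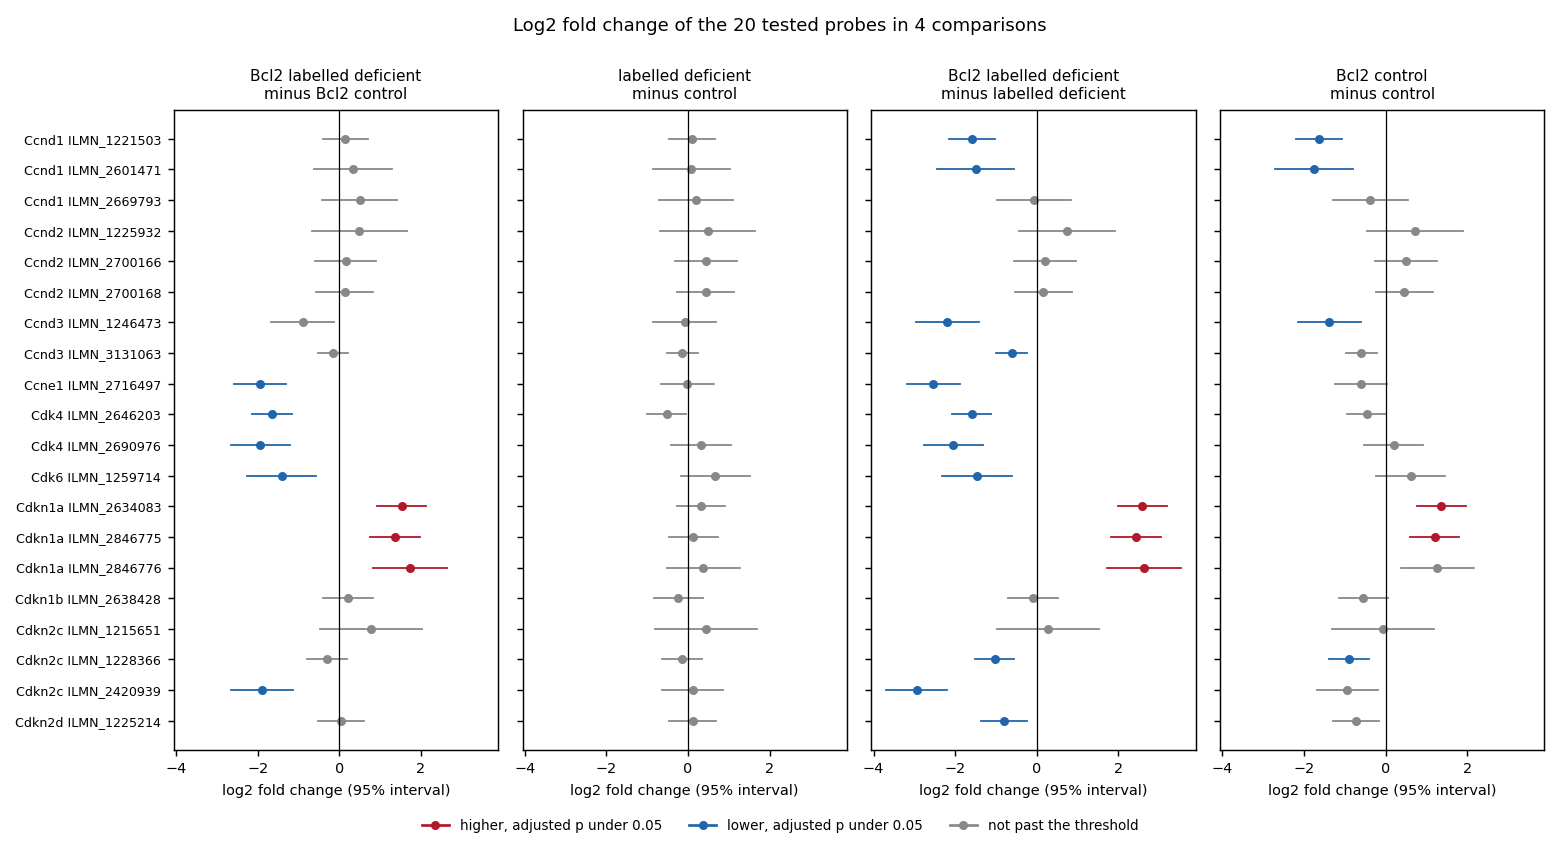
Log2 fold change (horizontal axis, point) and its 95% interval (line) for the 20 tested probes in 4 pro-B comparisons, coloured where limma's adjusted p was under 0.05. The label gave 8 coloured probes with Bcl2 and none without it, and Bcl2 gave 14 in labelled deficient and 6 in control cells.

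Ccnd1 encodes cyclin D1, a D-type cyclin that is usually low in B lineage cells. Its brightest probe (ILMN_1221503) read 6.73, 6.48 and 6.30 on Bcl2 labelled deficient arrays and 6.74, 6.35 and 5.99 on Bcl2 control arrays. It read 8.27, 7.78 and 8.21 on labelled deficient and 8.03, 7.59 and 8.36 on control arrays without Bcl2. The arrays thus fell apart by Bcl2 and not by the Bcl11a label, with no overlap between the Bcl2 states. The difference with Bcl2 was -1.58 ± 0.25 in labelled deficient cells (SE, adjusted p = 0.00056; -1.29 within slide 1 and -1.83 within slide 2). In control cells it was -1.63 ± 0.25 (adjusted p = 0.00288; -1.07 within slide 1, not passing, and -2.19 within slide 2, against control replicate 3 alone). The difference by label was 0.14 ± 0.25 with Bcl2 and 0.10 ± 0.25 without it.

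The other Ccnd1 probes were dimmer and did not behave alike. ILMN_2601471, which was not above background on Bcl2 labelled deficient replicate 1 and Bcl2 control replicates 1 and 3, was lower with Bcl2 by -1.50 ± 0.43 in labelled deficient (adjusted p = 0.0186) and -1.75 ± 0.43 in control cells (adjusted p = 0.0323). The first call was lost without Bcl2 labelled deficient replicate 1 (0.0836) or 3 (0.0518) or labelled deficient replicate 3 (0.0748). The second was lost without Bcl2 control replicate 1 (0.131), 2 (0.0567) or 3 (0.0814), Bcl2 labelled deficient replicate 3 (0.0527) or control replicate 1 (0.0727). ILMN_2669793 gave -0.07 ± 0.42 and -0.37 ± 0.42 and passed in neither.

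Ccnd2 encodes cyclin D2, the D-type cyclin that cytokines commonly induce in lymphocytes. Its brightest probe (ILMN_2700166) read 12.64, 12.40 and 12.95 on Bcl2 labelled deficient arrays, 12.34, 12.57 and 12.63 on Bcl2 control arrays, 11.72, 12.47 and 13.18 on labelled deficient arrays and 11.70, 11.76 and 12.60 on control arrays. All 4 groups overlapped. None of its 3 tested probes passed in the 4 pairwise pro-B comparisons, where their log2 fold changes ran from 0.14 to 0.74. Without control replicate 3, the probe ILMN_1225932 passed as higher with Bcl2 in control cells (1.43, adjusted p = 0.0261).

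Ccnd3 encodes cyclin D3. Its brightest probe (ILMN_3131063) read 13.42, 13.53 and 13.97 on Bcl2 labelled deficient arrays, 13.77, 13.84 and 13.79 on Bcl2 control arrays, 14.15, 14.27 and 14.35 on labelled deficient arrays and 14.35, 14.36 and 14.47 on control arrays. Every Bcl2 array was below every array without Bcl2. The difference with Bcl2 was -0.62 ± 0.17 in labelled deficient cells (adjusted p = 0.0155), a call lost without Bcl2 labelled deficient replicate 1 (0.0718) or 2 (0.0614) or labelled deficient replicate 3 (0.0558). In control cells it was -0.59 ± 0.17 (adjusted p = 0.0613), and passed without control replicate 3 (0.0393) or Bcl2 labelled deficient replicate 3 (0.0476).

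The second Ccnd3 probe (ILMN_1246473) moved the same way and further. It read 8.53, 8.11 and 8.72 on Bcl2 labelled deficient arrays, 9.23, 9.09 and 9.73 on Bcl2 control arrays, 10.71, 10.94 and 10.28 on labelled deficient arrays and 11.12, 11.24 and 9.82 on control arrays. In labelled deficient cells Bcl2 came with a difference of -2.19 ± 0.35 (adjusted p = 0.000599; -2.29 within slide 1 and -1.87 within slide 2). In control cells it was -1.38 ± 0.35 (adjusted p = 0.0394), with -1.95 within slide 1 and -0.41 within slide 2, neither passing. It passed in 8 of 24 alternatives on the scanner values and was lost without any array but control replicate 3 and labelled deficient replicate 3 (0.0518 to 0.131). By the label with Bcl2, the groups did not overlap and the difference was -0.90 ± 0.35 (adjusted p = 0.101, and 0.00927 without control replicate 3).

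Ccne1 encodes cyclin E1, the partner of CDK2 at the start of S phase, and has 1 probe (ILMN_2716497). On Bcl2 labelled deficient arrays it read 5.57, 5.17 and 5.56 with detection p of 0.0865, 0.345 and 0.0897, and so was not well above background on any. It read 7.41, 7.26 and 7.46 on Bcl2 control arrays, 8.11, 7.86 and 7.93 on labelled deficient arrays and 8.40, 8.38 and 7.16 on control arrays. Ccne1 was therefore detected on all 9 other pro-B arrays, each of which read above all 3 Bcl2 labelled deficient arrays. Folds against that group are bounds, set against the lowest signal above background on each array: at least 3.19-fold lower than Bcl2 control (adjusted p = 0.000693) and at least 4.80-fold lower than labelled deficient cells without Bcl2 (adjusted p = 5.35e-05).

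The label's effect on Ccne1 differed between the Bcl2 states. The fitted log2 difference was -1.94 ± 0.29 with Bcl2 (-1.84 within slide 1, 1 array against 1, and -1.99 within slide 2) and -0.01 ± 0.29 without it. Their difference, the interaction, was -1.93 ± 0.41 (adjusted p = 0.0151), and was lost without Bcl2 labelled deficient replicate 2 (0.0508). It was -1.43 within slide 1, not passing, and -2.77 within slide 2, where the dim control replicate 3 is the lone control. Bcl2 in control cells gave -0.61 ± 0.29 (adjusted p = 0.25), and -1.03 without control replicate 3 (adjusted p = 0.00211). Since these are bulk samples, fewer cells in a cycling state and less RNA per cell cannot be told apart here or in the results below.

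Cdk4 encodes a kinase that pairs with D-type cyclins. Its brightest probe (ILMN_2690976) read 10.52, 10.54 and 10.49 on Bcl2 labelled deficient arrays, 12.60, 12.47 and 12.29 on Bcl2 control arrays, 12.65, 12.56 and 12.49 on labelled deficient arrays and 12.84, 12.66 and 11.24 on control arrays. The second probe (ILMN_2646203) read 7.81, 7.82 and 7.66 on Bcl2 labelled deficient arrays, 9.56, 9.31 and 9.38 on Bcl2 control arrays, 9.52, 9.39 and 9.16 on labelled deficient arrays and 9.85, 9.44 and 10.35 on control arrays. On both probes the 3 Bcl2 labelled deficient arrays were below the other 9. Control replicate 3 was the lowest of its group on the first probe and the highest on the second.

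By the label with Bcl2, the brighter Cdk4 probe differed by -1.94 ± 0.33 (adjusted p = 0.00163; -2.07 within slide 1 and -1.87 within slide 2). The dimmer differed by -1.65 ± 0.22 (adjusted p = 0.000296; -1.75 and -1.60). The slide 1 values are 1 array against 1. Without Bcl2 the 2 probes gave 0.32 ± 0.33 and -0.52 ± 0.22, which did not pass. Bcl2 in labelled deficient cells gave -2.05 ± 0.33 (adjusted p = 0.000592) and -1.59 ± 0.22 (adjusted p = 0.0002), and in control cells 0.20 ± 0.33 and -0.47 ± 0.22, not passing. The interaction was -2.25 ± 0.47 for the brighter probe (adjusted p = 0.0128; -1.92 within slide 1, not passing, and -3.12 within slide 2, where control replicate 3 is the lone control). For the dimmer it was -1.13 ± 0.31 (adjusted p = 0.0479), a call lost with the replicate block (0.0754) and without any 1 of 11 arrays, all but control replicate 3 (0.0626 to 0.12), and not reached within slide 1 (-1.56) or 2 (-0.41).

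The Cdk4 promoter window is printed for the 4 copies of the letters CACGTG, the canonical E-box, in capitals. It spans chr10:127063285-127063584 (GRCm38.p6, plus strand, RefSeq), 250 bases before to 50 after the transcription start.
Cdk4: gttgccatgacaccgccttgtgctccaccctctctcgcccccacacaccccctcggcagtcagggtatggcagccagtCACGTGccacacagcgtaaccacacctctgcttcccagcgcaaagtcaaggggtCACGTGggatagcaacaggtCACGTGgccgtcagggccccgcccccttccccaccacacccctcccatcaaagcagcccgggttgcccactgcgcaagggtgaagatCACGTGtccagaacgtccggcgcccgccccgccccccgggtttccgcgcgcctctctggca
Of 32851 windows of this length, 7.15% held CACGTG and 0.0244% held 4 or more copies. Of the 11 windows found for 8 of the 10 genes, those of Cdk6 and of 1 Cdkn2c start held 1 copy and the others none. The E-box is the sequence that Myc and related proteins bind, and a match of letters shows no binding. The letters were chosen with the sequences and results known.

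Cdk6 encodes the other partner kinase of D-type cyclins, and has 1 probe (ILMN_1259714). It read 6.66, 6.03 and 5.98 on Bcl2 labelled deficient arrays, 8.07, 7.32 and 7.51 on Bcl2 control arrays, 7.81, 7.68 and 7.58 on labelled deficient arrays and 7.80, 7.25 and 6.01 on control arrays. On control replicate 3 it was not above background. That array overlapped the Bcl2 labelled deficient arrays, and the other 8 did not.

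With Bcl2 the Cdk6 difference by label was -1.41 ± 0.39 (adjusted p = 0.0234; -1.41 within each slide, not passing within slide 1, where it is 1 array against 1). It was lost without Bcl2 control replicate 1 (0.0984) or 3 (0.053), or Bcl2 labelled deficient replicate 2 (0.0843) or 3 (0.0885). Bcl2 in labelled deficient cells gave -1.46 ± 0.39 (adjusted p = 0.0122; -1.08 and -1.58 by slide, the first not passing) and in control cells 0.61 ± 0.39 (adjusted p = 0.39). The interaction was -2.08 ± 0.55 (adjusted p = 0.0402), which passed without control replicate 1 or 3 and was lost without any other array (0.0509 to 0.104). It was -1.62 within slide 1, not passing, and -2.98 within slide 2, where control replicate 3 is the lone control.

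Cdkn1a encodes a CIP/KIP inhibitor that halts the cycle after DNA damage. Its brightest probe (ILMN_2634083) read 14.40, 14.19 and 14.50 on Bcl2 labelled deficient arrays, 12.84, 12.65 and 13.00 on Bcl2 control arrays, 11.74, 12.18 and 11.42 on labelled deficient arrays and 11.90, 11.64 and 10.85 on control arrays. The Bcl2 labelled deficient arrays were the highest, the Bcl2 control arrays next with no overlap, and both groups without Bcl2 lower and overlapping each other. The other probes, ILMN_2846775 and ILMN_2846776, had the same order of groups.

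By the label with Bcl2, the 3 Cdkn1a probes were higher by 1.53 ± 0.27 (adjusted p = 0.00218), 1.36 ± 0.28 (0.00484) and 1.73 ± 0.41 (0.0113). The brightest gave 1.55 within slide 1, not passing, and 1.52 within slide 2. The call of the last probe was lost without Bcl2 control replicate 2 (0.0526). Without Bcl2 the label gave 0.32 ± 0.27, 0.13 ± 0.28 and 0.37 ± 0.41, none passing. The interaction of 1.21 ± 0.39, 1.23 ± 0.39 and 1.36 ± 0.58 did not pass (adjusted p = 0.0824, 0.0835 and 0.191). It passed for all 3 with the replicate block (0.0331, 0.0301 and 0.0464) and without control replicate 3 (0.00551, 0.0129 and 0.0109).

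Bcl2 came with more Cdkn1a in both backgrounds, but with only the 6 arrays compared no Cdkn1a probe passed in control cells. In labelled deficient cells the 3 probes were 5.98-, 5.39- and 6.18-fold higher (log2 2.58 ± 0.27, 2.43 ± 0.28 and 2.63 ± 0.41, adjusted p = 2.81e-05, 5.05e-05 and 0.000483). In control cells the brightest was 2.58-fold higher (1.37 ± 0.27, adjusted p = 0.0122, lost without Bcl2 control replicate 3 at 0.0599; 1.07 within slide 1, not passing, and 1.97 within slide 2, against control replicate 3 alone). There the second gave 1.20 ± 0.28 (adjusted p = 0.0245, lost without Bcl2 control replicate 1 at 0.085 or 3 at 0.0991 and with 75th percentile scaling at 0.0518) and the third 1.27 ± 0.41 (adjusted p = 0.0934, and 0.0322 without control replicate 1).

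Of the pair of Cdkn1a promoter windows, the upstream one is printed because it holds a p53 element (capitals), the 20-base motif bound by p53, searched with at most 1 mismatch outside its cores. It spans chr17:29090729-29091028 (GRCm38.p6, plus strand, RefSeq).
Cdkn1a: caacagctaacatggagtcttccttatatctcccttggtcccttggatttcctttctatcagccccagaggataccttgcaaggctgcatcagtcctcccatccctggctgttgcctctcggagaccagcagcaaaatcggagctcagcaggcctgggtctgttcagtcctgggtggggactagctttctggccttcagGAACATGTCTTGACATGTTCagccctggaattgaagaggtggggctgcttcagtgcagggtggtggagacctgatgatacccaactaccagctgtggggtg
Such an element lay in 18 of the 32851 windows (0.0548%) and in none of the other 10 windows of these genes. An E2F motif of 8 letters (TTTCCCGC, TTTGGCGC, TTTCGCGC or TTTGCCGC, either strand) lay in 2.26% of all windows and in none of the 11. Motifs were chosen with the sequences and results known, matches are described only, and no p53 level was analysed here.

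Cdkn1b encodes the second CIP/KIP inhibitor. Its 1 tested probe (ILMN_2638428) read 7.83, 7.62 and 7.95 on Bcl2 labelled deficient arrays, 7.48, 7.41 and 7.85 on Bcl2 control arrays, 7.38, 8.30 and 7.99 on labelled deficient arrays and 7.61, 8.35 and 8.42 on control arrays. All groups overlapped, and the log2 fold changes of -0.55 to 0.22 did not pass in any of the 4 pairwise pro-B comparisons.

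Cdkn2c encodes an INK4 inhibitor, and its 3 probes disagreed. The brightest (ILMN_1228366) read 10.19, 10.14 and 9.95 on Bcl2 labelled deficient arrays, 10.69, 10.40 and 10.09 on Bcl2 control arrays, 11.33, 10.92 and 11.14 on labelled deficient arrays and 11.58, 11.37 and 10.88 on control arrays. The arrays with Bcl2 were all below those without, with -1.04 ± 0.22 in labelled deficient (adjusted p = 0.00378) and -0.89 ± 0.22 in control cells (adjusted p = 0.0359), and gave -0.30 ± 0.22 by the label with Bcl2 (adjusted p = 0.415). The call in control cells was lost without any 1 of 8 arrays (0.0537 to 0.149), which were Bcl2 control replicates 2 and 3, all 3 Bcl2 labelled deficient replicates, labelled deficient replicate 3 and control replicates 1 and 2. It was also lost with 75th percentile scaling (-0.74, adjusted p = 0.2).

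The Cdkn2c probe ILMN_2420939 followed the pattern of Cdk4 and Ccne1. It read 6.94, 6.91 and 6.78 on Bcl2 labelled deficient arrays, 8.97, 8.80 and 8.54 on Bcl2 control arrays, 9.89, 9.69 and 9.88 on labelled deficient arrays and 10.28, 10.17 and 8.68 on control arrays. It differed by -1.89 ± 0.34 by the label with Bcl2 (adjusted p = 0.00232; -2.03 within slide 1, 1 array against 1, and -1.83 within slide 2) and by -2.94 ± 0.34 with Bcl2 in labelled deficient cells (adjusted p = 5.73e-05). The interaction was -2.01 ± 0.48 (adjusted p = 0.027; -1.60 within slide 1, not passing, and -3.03 within slide 2, where control replicate 3 is the lone control). It was lost with 75th percentile scaling (0.0626) and without any 1 of 7 arrays (0.064 to 0.0734). These were Bcl2 control replicates 1 and 2, the 3 Bcl2 labelled deficient replicates, and labelled deficient replicates 1 and 3. In control cells Bcl2 gave -0.94 ± 0.34 (adjusted p = 0.133), and -1.45 without control replicate 3 (0.000256).

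The third Cdkn2c probe (ILMN_1215651) went the other way by the label with Bcl2. It read 8.40, 8.69 and 8.47 on Bcl2 labelled deficient arrays, 8.00, 7.69 and 7.54 on Bcl2 control arrays, 8.34, 8.25 and 8.15 on labelled deficient arrays and 8.69, 8.79 and 5.96 on control arrays, the last not above background. The Bcl2 labelled deficient arrays were all above the Bcl2 control arrays, by 0.78 ± 0.57 (adjusted p = 0.404). The control arrays had an SD of 1.60 on this probe, and without control replicate 3 the same difference of 0.78 had an adjusted p of 0.00169. So no single direction can be given for Cdkn2c by the label, and the part of the transcript each probe reads was not analysed here.

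**Figure D3:**
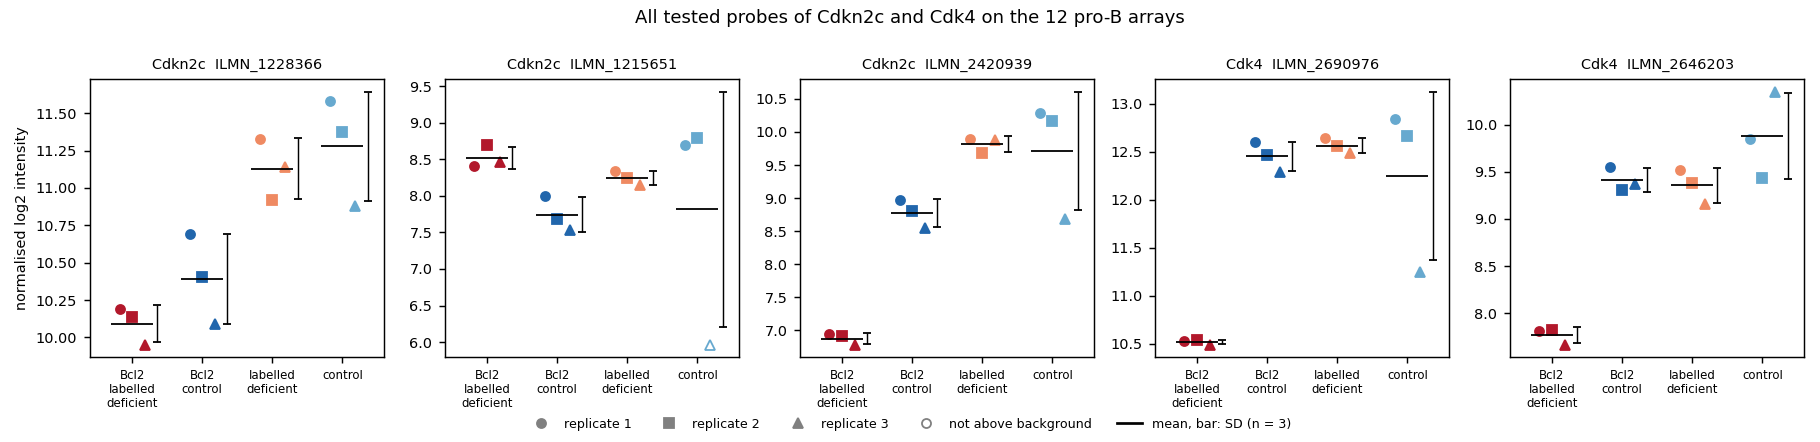
Normalised log2 intensity (vertical axis, a scale per panel) of the 3 tested Cdkn2c probes and the 2 Cdk4 probes on the 12 pro-B arrays, by group, with a symbol per replicate (open where not above background) and the mean and SD of 3 arrays. By the label with Bcl2 the Cdkn2c probes differed by -0.30, 0.78 and -1.89, and control replicate 3 (triangle) was the lowest control array on 4 panels and the highest on the Cdk4 probe ILMN_2646203.

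Cdkn2d encodes another INK4 inhibitor, with 1 probe (ILMN_1225214). It read 9.08, 8.94 and 8.78 on Bcl2 labelled deficient arrays, 9.09, 8.78 and 8.81 on Bcl2 control arrays, 9.59, 9.85 and 9.76 on labelled deficient arrays and 9.72, 10.17 and 8.98 on control arrays. The groups with and without Bcl2 were apart but for control replicate 3. Bcl2 gave -0.80 ± 0.26 in labelled deficient cells (adjusted p = 0.0326), lost without any 1 of the 6 arrays compared (0.056 to 0.106) and with 75th percentile scaling (0.105), and -0.73 ± 0.26 in control cells (adjusted p = 0.124, and -1.05 with 0.00307 without control replicate 3). By the label it differed by 0.04 ± 0.26 with Bcl2 and 0.11 ± 0.26 without.

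The label's effect thus differed by Bcl2 state for 5 of the 20 probes, all lower with Bcl2, against 7.90% of all probes tested (3.19% higher and 4.71% lower). These were the probes of Ccne1, Cdk4 (both), Cdk6 and Cdkn2c (ILMN_2420939) described above. The count was 9 without control replicate 3, 4 of them higher, and 1 to 3 without any 1 of the other arrays but control replicate 1. It was 7 with the replicate block, 3 higher (the Cdkn1a probes) and 4 lower. Over all probes, too, leaving out control replicate 3 gave the highest count among the arrays left out, as given in the last section. With 75th percentile scaling 4 member probes passed, all lower. That scaling changed the interaction of each probe by a median of -0.17 log2 units over all probes, while the median interaction was -0.04 with it and -0.01 with quantile scaling. With no filter on dim probes 3 passed, the calls of Cdk6 and Cdk4 ILMN_2646203 being lost.

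In DN3 cells, compared with control pro-B cells, Ccnd1, Ccnd2 and Cdk6 were higher and Ccnd3, Ccne1 and Cdkn1a lower, although the Ccnd2 and Cdk6 calls were lost with 75th percentile scaling and turned with the series matrix scores. Of the 20 probes 12 passed, 7 higher and 5 lower, against 43.0% of all probes (19.8% higher and 23.2% lower). Slide, strain, background subtraction and cell type cannot be told apart in this comparison. With 75th percentile scaling, which changed each probe's difference by a median of -0.29 log2 units over all probes (the median difference itself was -0.15, against -0.10 with quantile scaling), 2 member probes were higher and 9 lower, and over all probes 2433 were higher and 5301 lower, against 3731 and 4367 with quantile scaling. The count of members passing was 17 without control replicate 3, 7 without control replicate 1 or 2, and 6 without DN3 replicate 1 or 3, or with only the 6 arrays compared. Without control replicate 3 the count over all probes was also the highest among the arrays left out, as given in the last section.

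Among the D-type cyclins, the Ccnd3 difference was the steadiest. On the scale of all 15 arrays its brightest probe (ILMN_3131063) read 13.54, 13.54 and 13.41 on DN3 arrays, against 14.10, 14.10 and 14.22 on control arrays, and its second (ILMN_1246473) 8.48, 8.09 and 8.24 against 10.85, 10.98 and 9.57. Neither probe overlapped between the groups. They were lower in DN3 by -0.64 ± 0.16 (adjusted p = 0.00484) and -2.19 ± 0.33 (adjusted p = 0.000102), and passed in each alternative run.

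Ccnd1 (ILMN_1221503) read 9.75, 7.89 and 9.48 on DN3 arrays, against 7.78, 7.35 and 8.11 on control arrays, so that DN3 replicate 2 overlapped the controls. The difference of 1.29 ± 0.39 (adjusted p = 0.0151) was lost without control replicate 2 (0.0593), DN3 replicate 1 (0.0795) or DN3 replicate 3 (0.0712), and with 75th percentile scaling (0.0517). The probe ILMN_2601471 gave 1.72 ± 0.45 (adjusted p = 0.00719) with no overlap. The probe ILMN_2669793 gave 1.27 ± 0.40 (adjusted p = 0.0195), lost without control replicate 1 (0.0785) or 2 (0.0899), or DN3 replicate 1 (0.0794) or 3 (0.0621).

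Ccnd2 (ILMN_2700166) read 12.59, 12.63 and 12.88 on DN3 arrays, against 11.44, 11.49 and 12.33 on control arrays. The groups were apart, and the difference was 0.95 ± 0.32 (adjusted p = 0.0286), but it was lost without any 1 of the arrays compared other than control replicate 3 (0.0531 to 0.0976). The other probes gave 1.31 ± 0.49 (adjusted p = 0.0434) and 0.78 ± 0.29 (adjusted p = 0.044), lost without most single arrays. With 75th percentile scaling the 3 differences were 0.81, 0.17 and 0.0025, and none passed (0.102, 0.653 and 0.995).

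Ccne1 read 6.56, 7.29 and 6.28 on DN3 arrays, against 8.15, 8.13 and 6.93 on control arrays, with an overlap through control replicate 3. The difference was -1.03 ± 0.31 (adjusted p = 0.0157), lost without control replicate 1 (0.0669) or 2 (0.0662), or DN3 replicate 1 (0.0545) or 3 (0.0779). Cdk6 read 8.15, 7.97 and 7.56 on DN3 arrays, against 7.56, 7.02 and 5.83 on control arrays, a difference of 1.09 ± 0.36 (adjusted p = 0.0239). It was lost with 75th percentile scaling (0.278) and without control replicate 3 (0.61, adjusted p = 0.0686) or DN3 replicate 1 (0.0844) or 2 (0.0659). The Cdk4 probes gave -0.11 ± 0.30 (adjusted p = 0.796, and -0.61 with 0.00134 without control replicate 3) and -0.47 ± 0.21 (adjusted p = 0.0911, and 0.0176 without control replicate 2 or 0.00104 with 75th percentile scaling).

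Cdkn1a was lower in DN3 cells on its pair of dimmer probes. The brightest (ILMN_2634083) read 11.02, 9.87 and 10.46 on DN3 arrays, against 11.64, 11.38 and 10.59 on control arrays, and overlapped at -0.75 ± 0.31 (adjusted p = 0.0627, and 0.00704 without control replicate 3, 0.0206 without DN3 replicate 1 or 0.00614 with 75th percentile scaling). ILMN_2846775 and ILMN_2846776 did not overlap, at -1.93 ± 0.40 (adjusted p = 0.00138) and -2.14 ± 0.50 (adjusted p = 0.00327). Cdkn1b gave 0.51 ± 0.26 (adjusted p = 0.123). Cdkn2d gave -0.55 ± 0.24 (adjusted p = 0.0791) and the Cdkn2c probes -0.33 ± 0.21, -0.36 ± 0.32 and -0.10 ± 0.51, and without control replicate 3 all 4 passed as lower, at -0.87, -0.53, -0.87 and -1.01. Cdkn2d (0.0303) and the brightest Cdkn2c probe (0.0114) also passed as lower with 75th percentile scaling.

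**Figure D4:**
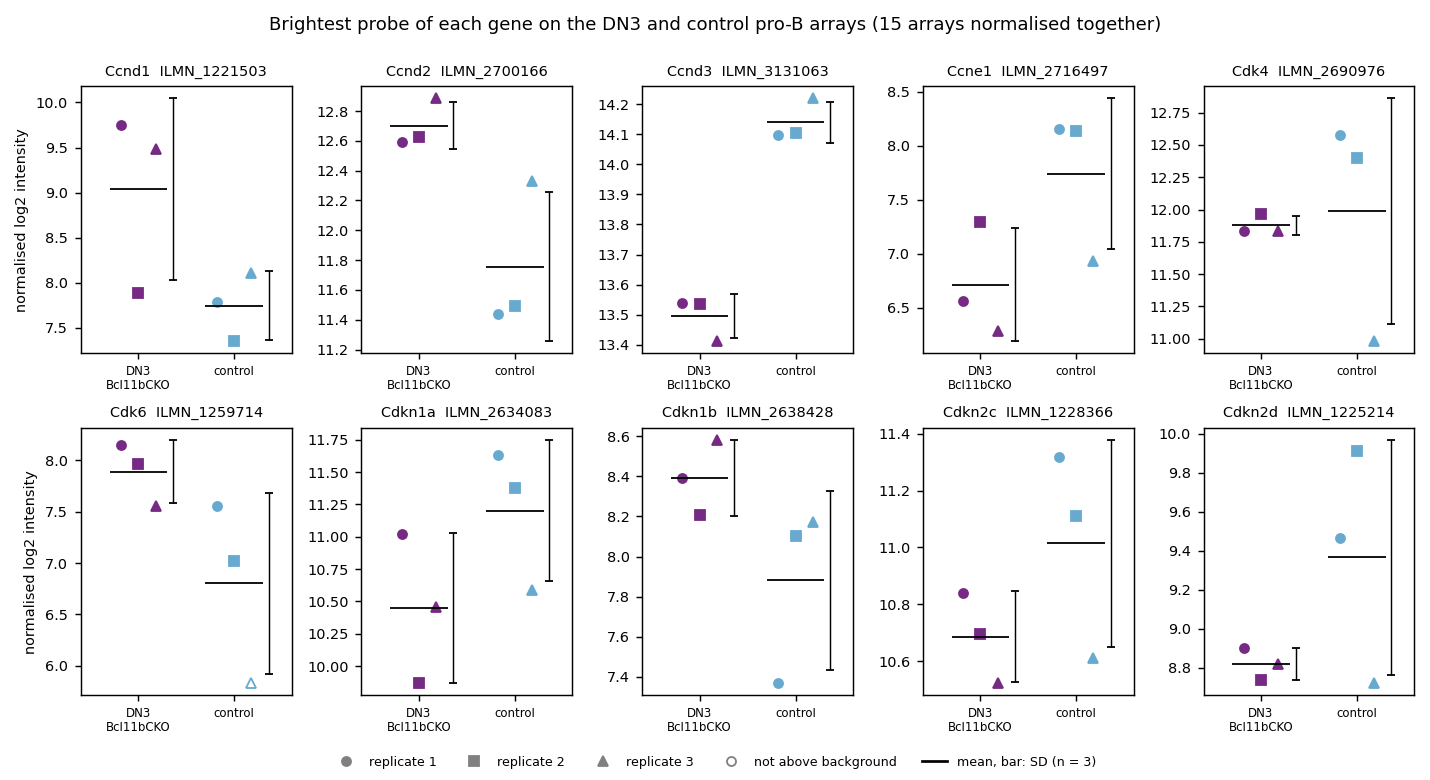
Normalised log2 intensity on the scale of all 15 arrays (vertical axis, a scale per panel) of the brightest probe of each gene on the DN3 and control pro-B arrays, with a symbol per replicate (open where not above background) and the mean and SD of 3 arrays. Ccnd3 was lower on all 3 DN3 arrays (13.41 to 13.54) than on the control arrays (14.10 to 14.22), and control replicate 3 (triangle) was the lowest or highest control array on every panel.

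The rest of the G1 pathway was followed as 25 genes, of which 22 were tested by their brightest probe. With Bcl2, the label came with 2 higher and 8 lower, against 11.7% and 11.3% of 9687 genes, and a median of -0.58 against 0.04 over all genes. Ccne2, the second cyclin E gene, was lower by -2.46 ± 0.17 (adjusted p = 2.31e-06), E2f1, a transcription factor of S phase entry, by -1.70 ± 0.21 (0.00015) and its partner Tfdp1 by -2.04 ± 0.25 (0.00017). Cdkn2b, an INK4 inhibitor, was higher by 1.94 ± 0.29 (0.000634). Without Bcl2 none of the 22 passed, against 0.0103% higher and 0.0206% lower of all genes. Those with the smallest p were Foxo3 (fitted 0.73 ± 0.30), Ccne2 (-0.36 ± 0.17), Rbl1 (-0.56 ± 0.35) and E2f4 (0.24 ± 0.17), with adjusted p of 0.764 to 0.803. Foxo3 was not above background on any control array, so its fold is a bound, at least 1.02-fold higher. A separate list of DNA replication genes, 15 of 20 tested, was lower in 15 of 15 with Bcl2 (median -2.11) and in none without it (median -0.04), and its part in the members' results was not tested.

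Bcl2 in labelled deficient cells came with 2 of the 22 pathway genes higher and 11 lower, against 20.3% and 17.5% of all genes. Ccne2 was lower by -2.94 ± 0.17 (adjusted p = 2.39e-07), E2f1 by -1.73 ± 0.21 (6.7e-05), and Cdkn2b was higher by 3.93 ± 0.29 (1.5e-06). Cdkn1c, a CIP/KIP inhibitor, was lower at a fitted -1.73 ± 0.20 (5.83e-05), but was above background on only 1 of the 3 Bcl2 labelled deficient arrays against 3 of 3, so the size of its difference is uncertain. In control cells 2 were higher and 2 lower, against 3.86% and 3.29%. Cdkn2b, above background on 2 of 3 control arrays, was higher by 2.37 ± 0.29 (adjusted p = 0.000555) and Cdkn1c lower by -1.08 ± 0.20 (0.00846). Ccne2 was lower by -0.84 ± 0.17 (0.0136, lost without Bcl2 control replicate 1 at 0.0585 or 3 at 0.0634, and with 75th percentile scaling at 0.165). Foxo3, not above background on any control array, was at least 1.52-fold higher (0.0246, lost without Bcl2 control replicate 1 or 2 or control replicate 1 or 2, at 0.053 to 0.095, and with 75th percentile scaling at 0.13). The replication list was lower for 15 of 15 in labelled deficient cells (median -2.79) and for 2 of 15 in control cells.

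The interaction passed for 6 of the 22, 2 higher and 4 lower, against 3.70% and 5.23% of all genes. Ccne2 gave -2.10 ± 0.24 (adjusted p = 0.000328), Tfdp1 -2.03 ± 0.35 (0.00461) and E2f1 -1.62 ± 0.29 (0.00561). Rb1, which encodes the retinoblastoma protein, gave 0.95 ± 0.22 (0.0222), lost with 75th percentile scaling (0.195) and without any 1 of 7 arrays (0.0547 to 0.0695), which were Bcl2 control replicates 1 and 2, the 3 Bcl2 labelled deficient replicates, and labelled deficient replicates 1 and 3. In DN3 cells 5 pathway genes were higher and 7 lower, against 20.4% and 23.7% of 10290 genes. Ccne2 was lower by -1.90 ± 0.26 (adjusted p = 4.36e-05), Tfdp2 by -0.66 ± 0.15 (0.00244), and Foxo3 was at least 2.18-fold higher (0.00048). Cdkn2a, an INK4 locus gene, was lower at a fitted -2.79 ± 0.56 (0.00116), but was above background on only 1 of 3 DN3 arrays, where its SD was 1.35, so the size of its difference is uncertain.

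For each member whose brightest probe passed in a pro-B comparison, the gene with the most similar profile over the 12 pro-B arrays was found by the root mean square difference of centred log2 intensity among 9687 genes, as a description that shares arrays and normalisation. Ccne1 lay nearest to the replication helicase gene Mcm3 (0.15), Cdk4 to the purine synthesis gene Gart (0.15) and Cdk6 to Sdf2l1 (0.21). Cdkn1a lay nearest to Enc1 (0.16). Ccnd1 lay nearest to App (0.26), Ccnd3 to Atp2c1 (0.14), Cdkn2c to Hspb6 (0.18) and Cdkn2d to Mta3 (0.13).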

How the data were processed

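Biotin-labelled RNA was hybridised to Illumina bead arrays, 1 per sample, per the labels' protocols. The deposited scanner table gives a linear intensity per probe, not normalised between arrays, and a detection value, a fraction from 0 to 1, so 1 minus it was taken as detection p. The sources used here name no scanner software. The deposited series matrix holds a score, the intensity centred and scaled per probe (largest deviation 5.0e-06), and was an alternative only.

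With limma 3.58.1 (R 4.3.3), neqc corrected background by detection p, added 16, quantile normalised the 12 pro-B arrays (all 15 for DN3) and took log2. Probes above background on at least 3 arrays were fitted with 1 mean per group (lmFit, eBayes). The fit was tested on simulated data with independent noise on each array. Those data held no paired deviations and no dim array, so that test does not cover them. Groups share 1 error, pooled over all arrays fitted, so p-values measure the spread between the arrays of each group. The dim control replicate 3 therefore enters the error of comparisons that do not use it. Whether the replicates were separate cultures was not analysed. An exact permutation test of 3 against 3 cannot go below p = 0.1, so none was used. Same-numbered arrays of each label pair deviated together (r of 0.249 to 0.396). The main fit has no pairs, and as an alternative the numbers were taken as pairs within a Bcl2 state, not between states (-0.125 to 0.314). Each such pair also lay on a single slide, while replicate 2 lay on another slide with Bcl2 than without. The part of slide in these r was not tested.

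All 10 genes and all probes are named. Of the pathway list, up to 4 genes with the smallest p per comparison are named. Members, lists and tests were chosen with earlier results of these data known. Settings tried were background, scaling, offset, filters, array weights, 1 probe per gene, slide, pairs and leaving out each array.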

Additional observations from a re-analysis of the deposited data

Results flagged for a closer look

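The effect of the Bcl11a label differed between the Bcl2 states by a test of the difference itself for 5 probes. The interaction was -1.93 ± 0.41 log2 units for Ccne1 ILMN_2716497, -2.25 ± 0.47 for Cdk4 ILMN_2690976, -1.13 ± 0.31 for Cdk4 ILMN_2646203, -2.08 ± 0.55 for Cdk6 ILMN_1259714 and -2.01 ± 0.48 for Cdkn2c ILMN_2420939, with limma adjusted p of 0.0151, 0.0128, 0.0479, 0.0402 and 0.027. Each was negative, so the difference of labelled deficient minus control was lower with Bcl2 than without it. All 15 tested replication genes had a lower interaction as well (median -2.18), and their part in these results was not tested. Control replicate 3, the dim array, enters each of these differences, and all 5 passed without it. Leaving out other single arrays ended the call of Cdk4 ILMN_2646203 for each of the other 11, of Cdk6 for 10, of Cdkn2c ILMN_2420939 for 7 and of Ccne1 for 1, and of Cdk4 ILMN_2690976 for none. The paired replicate block also ended the call of Cdk4 ILMN_2646203 (adjusted p = 0.0754).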

How the results depend on the processing

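Of 3684 values of single probes over the alternatives, 3354 stayed on the same side of the threshold. A call was lost for 242 and gained for 82, and 6 turned, meaning a changed sign with a call in either setting. Sign changes without a call in either setting are counted among the 3354. Those that turned were, with the series matrix (in SD units of each probe) in DN3, Ccnd2 ILMN_1225932 (-0.035), ILMN_2700166 (-0.70) and ILMN_2700168 (-0.76) and Cdk6 (-0.31), and, within slide 2, Cdkn2c ILMN_1215651 with Bcl2 in control cells (1.65) and in the interaction (-1.22), where control replicate 3 is the lone control. The cause was not tested. Counts are given below as all probes passing, then member probes, where they moved by over 1.5 times. Leaving out 1 array gave 2 to 7 probes (members 0) for the label without Bcl2, 2257 to 6614 (7 to 10) with Bcl2, 563 to 3412 (1 to 12) for Bcl2 in control cells, 4500 to 9197 (11 to 14) in labelled deficient cells, 754 to 2987 (1 to 9) for the interaction and 6085 to 10746 (6 to 17) for DN3. The highest count over all probes was in each case without control replicate 3. For the label without Bcl2, array weights gave 8, the series matrix, the 6 arrays alone and slide 1 gave 0, slide 2 gave 5725 and 5 members, and the replicate block within Bcl2 states 2. With Bcl2, array weights gave 7363, the series matrix 818 and 2 members, the 6 arrays alone 6529, slide 1 733 and 4, and 1 probe per gene 4 members. For Bcl2 in control cells, array weights gave 3894 and 12, the series matrix 0 and 0, the 6 arrays alone 280 and 1, slide 1 59 and 0, slide 2 7470 and 10, 1 probe per gene 788, and 75th percentile scaling 3 members. In labelled deficient cells, array weights gave 9522, the series matrix 2908 and 5, and 1 probe per gene 3826 and 8. For the interaction, array weights gave 3750 and 9, the series matrix 0 and 0, slide 1 126 and 0, slide 2 5987, and no filter or 1 probe per gene 3 members. For DN3, 1 probe per gene gave 4646 and 5 and the 6 arrays alone 4465 and 6. With 1 probe per gene fewer probes are tested, and a slide holds 1 or 2 arrays per group. The replicate block within Bcl2 states changed no call of a member other than those of Ccnd3, Cdk4 and Cdkn1a given with the results, and a replicate block over all 12 arrays, whose numbers do not pair Bcl2 states, lost Ccnd3 ILMN_1246473 with Bcl2 in control cells (-1.38, adjusted p = 0.054) and the interaction of Cdk4 ILMN_2646203 (-1.13, adjusted p = 0.0605). Probes near background, such as Ccne1 and Cdk6, limit what can be measured.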
